A study of Rattus norvegicus with 12 samples.

Results

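Vein grafts taken from rats 14 days after surgery were compared with vein grafts taken 7 days after surgery. In the model an external jugular vein serves as a carotid bypass, and the series is titled as a study of vein graft restenosis. The comparison uses 6 of the 12 arrays of the series, chosen by the label for the day after surgery, with 3 arrays at day 14 and 3 at day 7. All animals were male rats, the tissue is labelled as vein blood vessel, and the sources used here do not give strain, age or the number of animals behind each array. The remaining arrays held vein from control rats without surgery (day 0, 3 arrays) and grafts at day 28 (3 arrays), and they enter the results as points of reference and through the shared estimate of the spread. No label says that the 3 arrays of a day came from separate animals, although the series speaks of independent experiments, so the p-values reflect only how these arrays vary, and that variation may be technical.

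A vein moved into an artery meets arterial pressure and flow, and over the following weeks its wall thickens. In this remodelling leukocytes enter the wall, smooth muscle cells lose contractile proteins and divide, fibroblasts and smooth muscle cells lay down matrix, and a new inner layer, the neointima, forms. Macrophages and other antigen-presenting cells show peptides to T cells on class II histocompatibility molecules, interferons switch on a shared set of antiviral genes, and lipid-handling macrophages gather in many injured arteries and veins.

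Levels are given on the log2 scale relative to the 75th percentile of the array's gene spots, so that 0 is that percentile and 1 unit is a doubling. Values of a day are listed for replicates 1, 2 and 3, which are names and not an order. A change is the mean of day 14 minus the mean of day 7 with its standard error from the fit (SE, n = 3 arrays each). The SE takes its spread from all 12 arrays, so scatter at day 0 or day 28 enlarges it. A gene is said to rise or fall where its adjusted p in limma, taken over all 21063 probes tested, was under 0.05. Where no array of the dimmer day measured a probe well above background, a called change is in most cases also given as at least N-fold. Such arrays are said to be below background, which here means only that the probe was not well above it. This bound sets the brighter day against the dimmest signals that could be measured.

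The arrays differed in ways that bear on every value below. The share of gene spots well above background was 79.0 to 82.0% at day 14 and 73.9 to 82.6% at day 7, and 0 spots were saturated. Day 7 replicate 3 stood apart: the scanner software called 393 of its gene spots non-uniform, and 2 to 10 on each of the 5 remaining arrays of these days. Correlations across probes lay between 0.979 and 0.993 within day 14 and between 0.939 and 0.994 within day 7. In a principal component analysis of the 6 arrays the first component, with 47.9% of the variance, separated the days, and the second, with 37.0%, set day 7 replicate 3 (-105) apart from the others (-2.85 to 58.6). The slides on which the arrays lay overlapped only in part with the days. Slide 3 held all 3 day 7 arrays and day 14 replicate 1, and slide 4 held day 14 replicates 2 and 3. The wall itself was represented on both days: all 8 endothelial genes and 12 or 13 of the 13 contractile smooth muscle genes tested were well above background on each of the 6 arrays.

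Of 21063 probes tested, 290 (1.38%) rose and 397 (1.88%) fell at day 14, together 687 (3.26%). At least a 2-fold change was seen for 244 of those that rose and 375 of those that fell, and for 139 called probes the dimmer day was below background (43 rose, 96 fell). The median change over all probes was 0.05 and the median SE was 0.31. The 3 day 14 arrays and the 3 day 7 arrays did not overlap for 33.2% of all probes (20.3% higher and 12.9% lower at day 14) and for all 687 called ones. Counted by genes, with the brightest probe standing for each of 12355 genes, 163 (1.32%) rose and 224 (1.81%) fell, together 387 (3.13%). Slide as a fixed block left 28 calls, 11 higher and 17 lower. Only slide 3 held both days, so changes in that fit rest on day 14 replicate 1 against the 3 day 7 arrays. It is therefore no check apart from the comparison within slide 3. Within slide 3 alone, where day 14 replicate 1 met the 3 day 7 arrays, 0 probes passed the limma threshold (1408 at an unadjusted p under 0.05). Without day 7 replicate 3 the calls numbered 1263, with 351 (1.67%) higher and 912 (4.33%) lower.

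**Figure D1:**
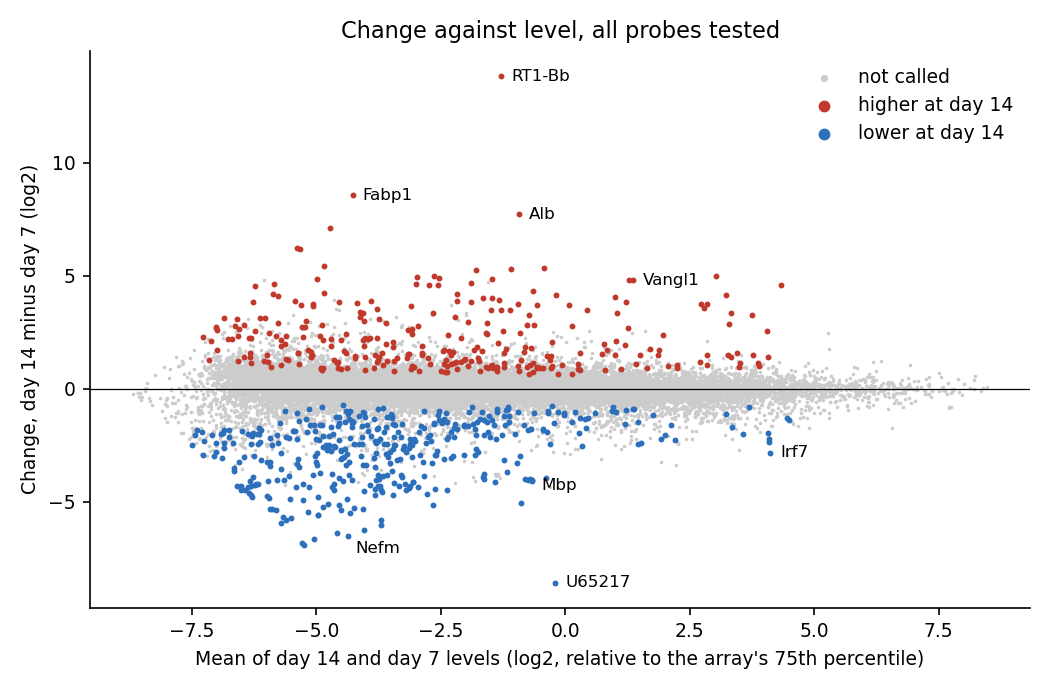
Each point is 1 of the 21063 probes tested, with its mean level over days 14 and 7 on the horizontal axis (log2 relative to the 75th percentile of the array) and its change, day 14 minus day 7, on the vertical axis (log2). Coloured points are the 290 probes that rose and the 397 that fell, with some of them labelled, and grey points did not pass the threshold.

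The largest rise among called genes was that of a class II histocompatibility gene. RT1-Bb, which encodes a class II beta chain, had levels of 5.69, 5.23 and 5.97 at day 14, against -7.61, -8.98 and -8.05 at day 7. All 3 day 14 arrays were among the bright signals of the array and all 3 day 7 arrays were below background, so the difference of 13.85 ± 2.57 (adjusted p = 0.0179) is given as at least 5062-fold. RT1-Bb was present in unoperated vein, with levels of 2.48, 0.55 and -0.31 on the day 0 arrays, and differed among the day 28 arrays, with 2.62, -8.72 and 3.94. Its SD of 6.96 at day 28, against 0.70 at day 7 and 0.37 at day 14, enters the SE of its change. Leaving out any array of the pair other than day 7 replicate 3 lost this call (adjusted p from 0.0278 to 0.0760 over the 6 arrays left out), while the change stayed between 13.46 and 14.15. A second beta chain gene, RT1-Db1, had 5.42, 4.76 and 5.84 at day 14, against 2.78, 2.93 and 2.66 at day 7. The RT1-Db1 arrays did not overlap and its change was 2.55 ± 0.58 (adjusted p = 0.0419), a call that was lost without any single array of the pair (adjusted p from 0.0650 to 0.178).

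The other class II genes moved less. RT1-Ba, the alpha chain gene of the B locus, had 6.87, 6.32 and 7.14 at day 14, against 5.64, 5.95 and 5.22 at day 7. RT1-Ba was thus bright on the day 7 arrays that gave RT1-Bb below background. On day 28 replicate 2 RT1-Ba had 5.20 and RT1-Bb -8.72. Why the RT1-Bb probe gave so little signal on those arrays was not tested. RT1-Da, the alpha chain gene of the D locus, had 6.79, 6.10 and 7.00 at day 14, against 5.89, 5.92 and 5.76 at day 7. Neither passed the test, with changes of 1.17 ± 0.75 (adjusted p = 0.505) for RT1-Ba and 0.77 ± 0.61 (adjusted p = 0.603) for RT1-Da, although the days did not overlap for either. The invariant chain Cd74, which guides class II molecules to the endosome, differed by 0.42 ± 0.61, and Ciita, the transactivator of class II genes, by 0.30 ± 0.32. In the class II list 2 of 11 genes tested rose and 0 fell (1.32% and 1.81% of all genes). All 11 differences were positive, with a median of 0.77 (0.04 over all genes). Summed on the linear scale, in units of the array's 75th percentile, the list came to 510, 374 and 618 at day 14, against 261, 259 and 265 at day 7. In a whole graft, fewer cells of a type and less RNA per cell cannot be told apart, and this holds for each cell type marker below.

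The promoters of the 4 class II chain genes are shown because these genes share a known regulatory element, the Y box, which was searched for as CTGATTGG on both strands. Each sequence runs 5′ to 3′ on the gene's strand, from 250 bases before to 50 bases after the annotated start, in RefSeq's GRCr8 assembly, with the match in capitals. RT1-Bb lies at chr20:4604069-4604368 on the minus strand, RT1-Db1 at chr20:4560113-4560412 on the minus strand, RT1-Ba at chr20:4576807-4577106 on the plus strand and RT1-Da at chr20:4515165-4515464 on the plus strand.
RT1-Bb: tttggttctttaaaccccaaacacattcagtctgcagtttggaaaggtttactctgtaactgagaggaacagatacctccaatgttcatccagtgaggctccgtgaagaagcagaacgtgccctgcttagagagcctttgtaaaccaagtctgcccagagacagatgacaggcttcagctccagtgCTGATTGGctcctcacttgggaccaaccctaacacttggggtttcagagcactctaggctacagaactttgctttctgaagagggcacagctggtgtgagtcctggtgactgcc
RT1-Db1: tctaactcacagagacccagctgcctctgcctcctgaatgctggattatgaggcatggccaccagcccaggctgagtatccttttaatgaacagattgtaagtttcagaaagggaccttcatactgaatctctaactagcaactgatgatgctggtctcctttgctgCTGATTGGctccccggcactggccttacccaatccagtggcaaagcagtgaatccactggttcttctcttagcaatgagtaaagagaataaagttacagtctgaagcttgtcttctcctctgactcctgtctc
RT1-Ba: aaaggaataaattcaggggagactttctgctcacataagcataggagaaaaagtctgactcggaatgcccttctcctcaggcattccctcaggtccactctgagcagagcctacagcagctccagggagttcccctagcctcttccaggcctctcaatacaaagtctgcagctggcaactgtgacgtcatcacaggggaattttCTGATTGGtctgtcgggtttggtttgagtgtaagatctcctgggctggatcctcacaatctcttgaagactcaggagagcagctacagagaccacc
RT1-Da: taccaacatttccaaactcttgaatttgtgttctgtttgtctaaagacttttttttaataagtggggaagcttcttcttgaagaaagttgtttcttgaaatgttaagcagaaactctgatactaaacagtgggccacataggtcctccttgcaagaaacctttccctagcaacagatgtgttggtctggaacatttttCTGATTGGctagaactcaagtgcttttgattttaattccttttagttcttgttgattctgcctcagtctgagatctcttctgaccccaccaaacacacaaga
All 4 windows held these letters, 64 bases before the start in RT1-Bb, 83 in RT1-Db1, 46 in RT1-Ba and 52 in RT1-Da. Among the promoters of all genes, 975 of 27457 windows (3.55%) held them. A match describes the letters and is no measure of a factor's binding, and genes with and without a called change carried it.

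**Figure D2:**
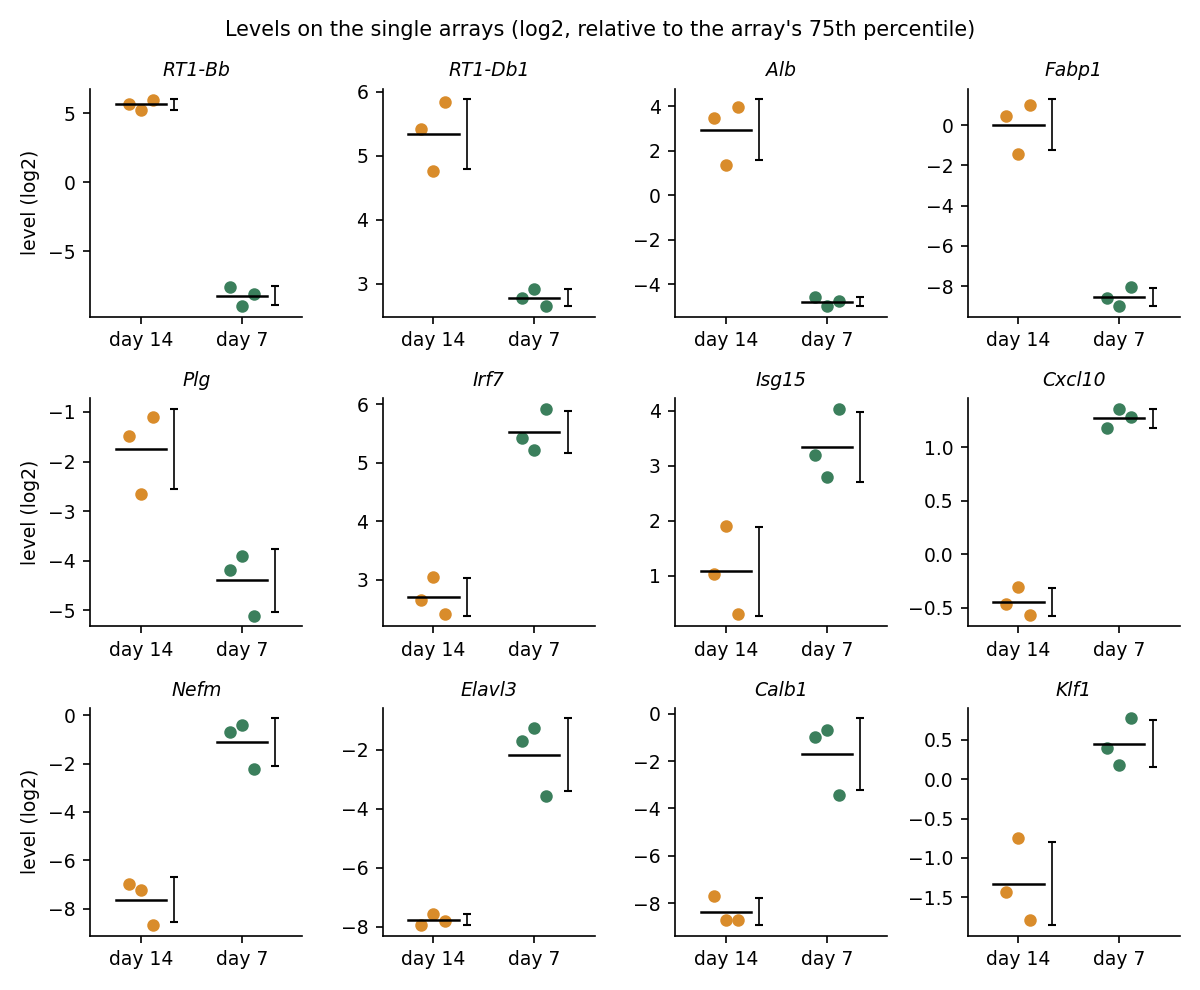
Levels of 12 genes on each array (log2 relative to the 75th percentile of the array), with the 3 day 14 arrays left of the 3 day 7 arrays in each panel. Points are arrays, bars the mean of a day and the error bars beside them the SD, and the vertical axes differ between panels. RT1-Bb is at 5.23 to 5.97 at day 14 and below background at day 7.

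Of 25 liver plasma protein genes tested, 6 rose and 0 fell at day 14 (1.32% and 1.81% of all genes). A probe was tested where at least 3 of the 12 arrays measured it well above background. Fgg of this list, and Mug1l1 and Mug1 named below, reached this only through the 3 day 14 arrays. Such genes could enter only as bright at day 14, so the one-sided counts follow in part from the filter. Alb, which encodes serum albumin, had levels of 3.49, 1.38 and 3.95 at day 14, against -4.59, -5.00 and -4.78 at day 7. The Alb difference was 7.73 ± 0.53 (adjusted p = 0.00017). Alb was lower than at day 14 in unoperated vein (mean -2.17) and at day 28 (mean -4.72), and its day 7 mean (-4.79) lay below that of unoperated vein. Fabp1, the fatty acid binding protein of hepatocytes and gut, had 0.47, -1.42 and 0.98 at day 14, against -8.59, -8.99 and -8.07 at day 7. Fabp1 was below background on all 3 day 7 arrays and rose by 8.56 ± 0.52 (adjusted p = 0.00015), at least 103-fold. In unoperated vein Fabp1 averaged -5.16 and was well above background on all 3 arrays. Fgg, the fibrinogen gamma chain, had -0.62, -2.87 and -0.02 at day 14, against -8.45, -8.91 and -7.44 at day 7. That gave a rise of at least 45.5-fold (7.10 ± 0.65, adjusted p = 0.000508). A pair of liver protease inhibitors related to alpha-2-macroglobulin rose as well, Mug1l1 by 6.22 ± 0.52 (at least 21.2-fold) and Mug1 by 6.19 ± 0.54 (at least 21.6-fold).

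The 6 liver plasma protein genes that rose were Alb, Fgg, F2 (prothrombin, 4.85 ± 1.01, called in 2 of the 6 fits that left out 1 array), Fga (fibrinogen alpha chain, 3.17 ± 0.45), Apoa2 (3.15 ± 0.59, at least 4.37-fold) and Plg (plasminogen, 2.65 ± 0.41). In unoperated vein Plg averaged -2.71, between its day 7 (-4.40) and day 14 (-1.75) means. The unoperated mean of F2 (-7.82) lay below its day 7 mean (-7.41). The median difference of the list was 1.14, or -0.07 with normexp background correction, a setting that moved the median of all probes to -0.37. In replicate order the list's median level was -1.55, -2.07 and -1.15 at day 14, against -3.60, -3.51 and -5.18 at day 7. Of the list, Itih1 had a probe that did not pass the filter on dim probes, and 6 other members were not analysed here. The list was not uniform. Ttr, the thyroxine carrier transthyretin, had 0.66, -0.71 and 0.88 at day 14, against 0.92, 1.21 and 0.14 at day 7. Ttr, Apob, Orm1 and Fetub did not pass the test and had differences between -0.67 and -0.25. Day 14 replicate 2 was the lowest day 14 array for Alb, Fabp1, Fgg, Fga, Plg and F2. It was the highest for Apoa2, with -4.72, -3.08 and -5.84 at day 14, against -7.48, -7.57 and -8.05 at day 7.

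A list of liver metabolism genes, written after the values were seen and therefore given as a description, had 8 of 19 members higher and 0 lower (1.32% and 1.81% of all genes). Mug1 and Afm of this list passed the filter on dim probes only through the day 14 arrays. Besides Fabp1 and Mug1 these were Gnmt, Hpd, Afm, Serpina6, Apoa5 and Slc27a5. Hpd, an enzyme of tyrosine breakdown, had -2.18, -3.38 and -1.74 at day 14, against -5.61, -6.34 and -5.51 at day 7 (3.39 ± 0.55, adjusted p = 0.00899). The cytochromes Cyp2e1 and Cyp3a2 and the iron hormone gene Hamp did not pass, with differences of -0.21 ± 0.49, -0.41 ± 0.46 and 0.00 ± 0.19. The median over this list was 1.46, or -0.37 with normexp.

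Other tissue that lies beside a neck vessel was read from its own markers. Fast skeletal muscle genes also differed between the day 14 arrays, and not in a way that passed the test between the days (0 of 16 called, median 1.72). Myl1, a fast myosin light chain, had 4.13, -0.29 and 4.79 at day 14, against 0.27, 0.49 and 0.18 at day 7. The summed level of the muscle list was 83.7, 19.95 and 113 at day 14, against 29.2, 33.6 and 17.7 at day 7. Day 14 replicate 2 was the lowest day 14 array for the muscle list as for Alb. The part of muscle or of any other tissue in the liver genes' rise was not tested.

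Promoters of 2 liver genes that rose are shown with GTTAAT, the start of the known HNF1 binding sequence, in capitals. The search covered both strands, and ATTAAC is the same sequence read on the opposite one. Alb lies at chr14:17906930-17907229 on the minus strand and Plg at chr1:50915357-50915656 on the minus strand (GRCr8, RefSeq windows as above).
Alb: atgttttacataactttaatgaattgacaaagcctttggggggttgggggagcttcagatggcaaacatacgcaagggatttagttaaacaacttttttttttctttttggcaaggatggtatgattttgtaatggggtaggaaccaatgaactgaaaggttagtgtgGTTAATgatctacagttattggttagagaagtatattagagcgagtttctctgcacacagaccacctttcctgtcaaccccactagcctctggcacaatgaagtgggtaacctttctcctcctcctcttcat
Plg: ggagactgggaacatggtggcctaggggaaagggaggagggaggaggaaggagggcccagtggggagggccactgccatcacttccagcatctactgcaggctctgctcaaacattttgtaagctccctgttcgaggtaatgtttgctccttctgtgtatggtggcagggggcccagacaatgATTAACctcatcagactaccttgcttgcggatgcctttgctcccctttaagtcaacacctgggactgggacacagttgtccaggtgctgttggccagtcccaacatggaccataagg
The match began 82 bases before the start in Alb and 67 in Plg. Among the 6 liver plasma genes that rose, 5 had a window and 4 of them held the letters, while the window of Fgg did not. All promoters held them in 7.37% of windows (2024 of 27457).

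Of 16 neurofilament and neuronal genes tested, 6 fell and 0 rose at day 14 (1.81% and 1.32% of all genes). Nefm, the medium neurofilament chain, had -6.96, -7.21 and -8.69 at day 14, against -0.69, -0.41 and -2.24 at day 7. Nefl, the light chain, had -6.65, -7.73 and -6.84 at day 14, against -0.91, -0.49 and -3.35 at day 7. Both were below background on all 3 day 14 arrays, with falls of at least 51.7-fold for Nefm (-6.51 ± 0.60, adjusted p = 0.000508) and at least 34.7-fold for Nefl (-5.49 ± 0.63, adjusted p = 0.00148). In unoperated vein both were low, with means of -6.23 for Nefm and -7.81 for Nefl, and at day 28 the means were -3.42 and -3.06. The 6 genes of the list that fell were Nefm, Nefl, Nefh (-2.12 ± 0.39), the synaptic vesicle calcium sensor Syt1 (-4.61 ± 0.47, at least 7.22-fold lower), the granule protein Scg2 (-3.80 ± 0.88) and Stmn4 (-1.92 ± 0.32). Their list median was -1.18. Other neuronal genes did not pass the test: Prph, Tubb3, Gap43, Uchl1 and Th had differences between -0.57 and 0.46.

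Other genes among the 15 largest falls were these. Bcan, which encodes the brain proteoglycan brevican, had -6.64, -6.49 and -6.67 at day 14, against -0.32, 0.11 and -2.17 at day 7 (-5.81 ± 0.54, adjusted p = 0.000508, at least 55.4-fold lower). Bcan stood at -0.01 on average in unoperated vein, so its level there was near that of day 7. Calb1, the calcium buffer calbindin, had -7.71, -8.70 and -8.70 at day 14, against -1.0, -0.67 and -3.45 at day 7 (-6.66 ± 0.74, at least 36.7-fold lower). Gabra6, a GABA receptor subunit of cerebellar granule cells, had -8.74, -8.47 and -8.43 at day 14, against -2.43, -1.95 and -5.26 at day 7 (-5.34 ± 0.69, at least 12.95-fold lower). On these genes day 7 replicate 3 was the lowest day 7 array but still lay above every day 14 array. Atp2b2, a calcium pump of neurons, fell by at least 60.8-fold. Elavl3, a neuronal RNA-binding protein, fell by at least 26.7-fold and Ppp1r1b, a dopamine-signalling regulator, by at least 26.8-fold. Chgb, Slitrk1, Lamp5 and Myt1l were others among the largest falls, with changes between -6.24 and -5.33. Slitrk1, Lamp5 and Myt1l were below background on every day 14 array and at least 17.8-fold, 13.7-fold and 12.4-fold lower.

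A brain list written after the values were seen had 11 of 21 members lower and 0 higher (1.81% and 1.32% of all genes), with a median of -3.13. Among the lower members were Calb1, Elavl3, Gabra6, Myt1l, Cplx1, Neurod1, Gad1, Gabra4, Camk2a and Nrgn. Gabra4 passed the filter on dim probes only through the day 7 arrays and could enter only as bright at day 7. The list's median level was -4.96, -4.55 and -5.09 at day 14, against -1.89, -1.63 and -3.51 at day 7, and in unoperated vein and at day 28 it lay between -4.30 and -3.89. Slc1a2, Aqp4, Pcp2 and Zic1 of the same list, which are astrocyte or cerebellar genes, did not pass (-0.21 to 0.65). Gabra6, also a cerebellar gene, was among those that fell. Syn2 gave a divided reading: 1 probe fell by at least 32.5-fold (-6.82 ± 0.45, adjusted p = 0.00015), while its brightest probe had -2.17 ± 0.64 (adjusted p = 0.118).

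Myelin gave a single call, where 1.81% of all genes fell. Mbp, myelin basic protein, had -2.71, -2.46 and -2.95 at day 14, against 2.19, 2.53 and -0.67 at day 7, with no overlap. Its change was -4.06 ± 0.79 (adjusted p = 0.0213), 5 of its 6 probes fell and the sixth had -0.37 ± 0.22. The Mbp call held without day 7 replicate 3 (adjusted p = 0.000692) and was lost without any other array of the pair (up to 0.101). The other 13 genes of the Schwann cell and myelin list did not pass. Prx, a protein of peripheral myelin, had a difference of 0.34 ± 0.33 and the Schwann cell factor Sox10 1.49 ± 0.96. The part of other tissue in these falls was not tested.

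**Figure D3:**
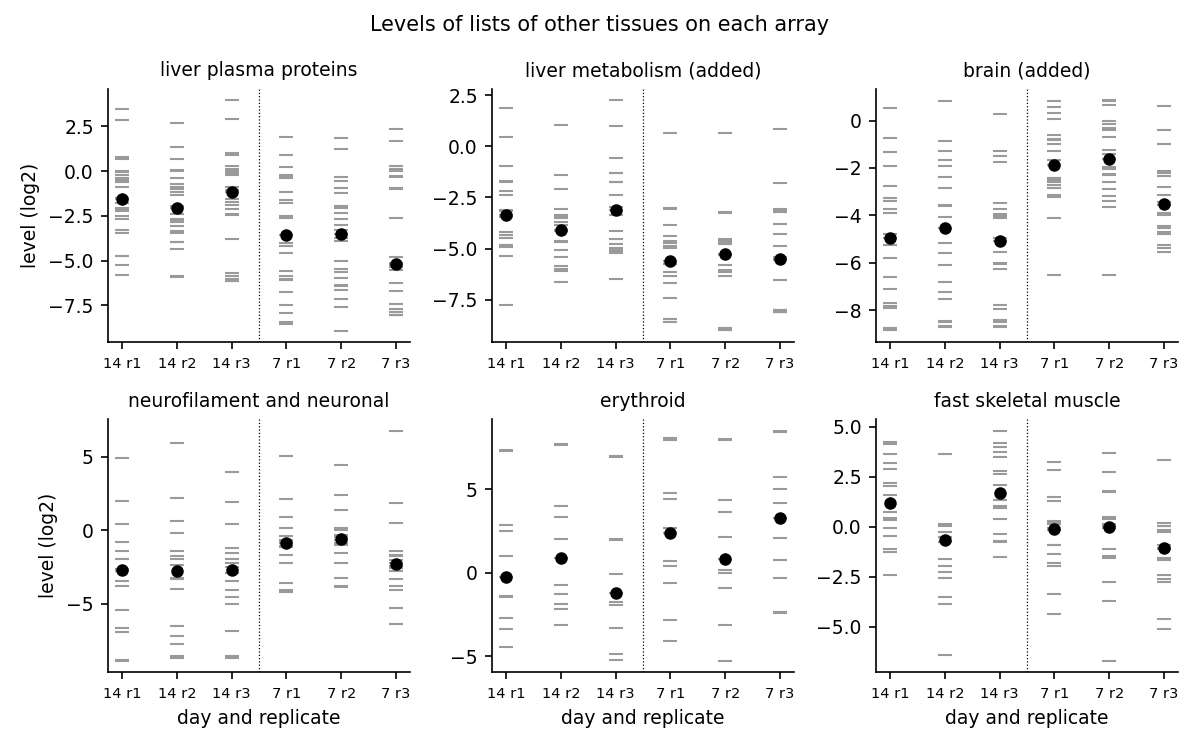
Level on each array of 6 gene lists for liver, brain, neurons, erythroid cells and muscle (log2 relative to the 75th percentile of the array), with day 14 left of day 7. The black dot is the list's median and each grey dash a member. The brain list's medians are -5.09 to -4.55 at day 14 and -3.51 to -1.63 at day 7, while the liver plasma list's are -2.07 to -1.15 at day 14 and -5.18 to -3.51 at day 7.

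Of 21 interferon response genes tested, 3 fell and 0 rose at day 14 (1.81% and 1.32% of all genes). Irf7, the transcription factor that amplifies type I interferon, had 2.65, 3.05 and 2.42 at day 14, against 5.43, 5.23 and 5.92 at day 7. The Irf7 fall of 2.82 on the log2 scale (-2.82 ± 0.28, adjusted p = 0.000677) held without each of the 6 arrays, and its adjusted p with slide as a fixed block was 0.0549. Isg15, a ubiquitin-like antiviral protein, had 1.02, 1.91 and 0.30 at day 14, against 3.20, 2.78 and 4.03 at day 7 (-2.26 ± 0.44, adjusted p = 0.0221), a call kept in 3 of the 6 fits that left out 1 array. Cxcl10, the interferon-induced T cell attractant, had -0.46, -0.31 and -0.57 at day 14, against 1.18, 1.35 and 1.28 at day 7. The Cxcl10 change of -1.72 ± 0.38 passed (adjusted p = 0.0382) but did not without any single array of the pair (adjusted p from 0.0581 to 0.151). Irf7, Isg15 and Cxcl10 had been lower still in unoperated vein, with means of 1.08, -0.16 and -2.90.

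The median difference of the interferon list was -0.97, 20 of the 21 differences were negative, and for 12 genes the day 14 arrays lay wholly below the day 7 arrays (13.1% of all genes did so). Rsad2, which encodes viperin, had -0.22, 0.49 and -1.22 at day 14, against 1.5, 1.42 and 2.3 at day 7, and missed the threshold (-2.06 ± 0.53, adjusted p = 0.0724). Ifi27, Mx1, Oas1a, Usp18 and Ifit2 also did not pass, with differences between -1.09 and -0.78. The transcription factors Irf1 and Irf9 had differences of -0.26 ± 0.24 and -0.07 ± 0.23. A fit to the 9 graft arrays alone called 7 of the 21 lower, and 3.62% of all probes. In the chemokine list Cxcl10 was the only call among 24 genes, and 0 of 18 inflammatory cytokine genes passed (medians -0.15 and -0.02).

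Promoters of Irf7 and Cxcl10 are shown with the core of the interferon-stimulated response element in capitals, searched on both strands as GAAA, any 2 bases and GAAA again. Irf7 lies at chr1:205799974-205800273 on the minus strand and Cxcl10 at chr14:15988816-15989115 on the plus strand (GRCr8, RefSeq windows as above).
Irf7: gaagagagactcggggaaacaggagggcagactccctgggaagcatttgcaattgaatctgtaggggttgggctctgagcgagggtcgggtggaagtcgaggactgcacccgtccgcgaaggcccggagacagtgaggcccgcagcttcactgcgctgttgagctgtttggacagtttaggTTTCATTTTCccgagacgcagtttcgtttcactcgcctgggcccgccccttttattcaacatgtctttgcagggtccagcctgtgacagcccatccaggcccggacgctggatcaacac
Cxcl10: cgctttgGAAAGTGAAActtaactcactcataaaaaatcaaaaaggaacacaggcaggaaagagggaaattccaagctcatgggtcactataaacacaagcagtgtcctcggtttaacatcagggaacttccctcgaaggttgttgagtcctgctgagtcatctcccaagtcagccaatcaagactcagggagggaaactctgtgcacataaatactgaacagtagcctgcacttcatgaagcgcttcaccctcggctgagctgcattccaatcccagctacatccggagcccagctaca
The match began 69 bases before the start in Irf7, on the opposite strand, and 243 in Cxcl10. Of all promoter windows 1034 (3.77%) held these letters.

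Of 11 erythroid genes 4 fell and 0 rose at day 14, and of 12 B and plasma cell genes 3 fell and 0 rose (1.81% of all genes fell and 1.32% rose). Klf1, the erythroid transcription factor, had -1.44, -0.75 and -1.79 at day 14, against 0.39, 0.18 and 0.77 at day 7 (-1.77 ± 0.28, adjusted p = 0.00787). The other erythroid genes that fell were Hemgn (-2.45 ± 0.46), Epb42 (-2.03 ± 0.40), a red cell membrane protein, and Alas2 (-2.00 ± 0.45), the haem synthesis enzyme of red cell precursors, and the list's median was -1.75. The globin genes Hba-a1 and Hbb did not pass (-1.75 ± 0.62 and -0.83 ± 0.32). Cd79b, a chain of the B cell receptor complex, had -5.58, -4.91 and -5.17 at day 14, against -2.02, -1.74 and -3.45 at day 7 (-2.82 ± 0.52). Fcrla fell too (-1.46 ± 0.22), while the B cell factor Pax5 had 0.80 ± 0.46 and the plasma cell factor Xbp1 -0.16 ± 0.58, neither called. Leaving out 1 array at a time gave 1 to 5 erythroid and 1 to 3 B cell calls, and Klf1 and Fcrla were called in all 6 of those fits. Calls over all probes numbered 225 to 1263 in the same fits.

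In the T and NK cell list 1 of 18 genes fell and 0 rose (1.81% and 1.32% of all genes). Gzma, the granule protease granzyme A, had -2.73, -2.71 and -2.71 at day 14, against -0.94, -1.0 and -0.82 at day 7 (-1.80 ± 0.42, adjusted p = 0.0495), and its call was lost without any single array of the pair. The remaining 17 T and NK cell genes did not pass. The T cell receptor genes Cd3e and Cd3d had differences of 0.12 ± 0.53 and -0.17 ± 0.18, and Cd4 had 0.97 ± 0.46. The neutrophil list had 0 calls among 10 genes, and its day 7 arrays differed widely: the calgranulin S100a8 had 1.56, 1.93 and 1.62 at day 14, against 3.45, 0.84 and 5.08 at day 7. Mast cell genes gave 0 calls of 9.

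Of 18 mitosis genes tested, 2 rose and 0 fell at day 14 (1.32% and 1.81% of all genes). Ube2c, which tags mitotic proteins for destruction, had -0.24, 0.11 and -0.13 at day 14, against -0.72, -1.20 and -1.18 at day 7 (0.95 ± 0.19, adjusted p = 0.0230). Prc1, a protein of the spindle midzone, had 0.50, 0.26 and 0.67 at day 14, against -0.21, -0.16 and -0.21 at day 7 (0.67 ± 0.15, adjusted p = 0.0412). Over the list 17 differences were positive with a median of 0.59, and for 10 genes the day 14 arrays lay wholly above the day 7 arrays (19.6% of all genes did so). The 9 graft arrays alone called 9 of the 18 higher (4.42% of all probes were higher in that fit), while leaving out 1 array at a time gave 0 to 2, with Ube2c and Prc1 each called in 2 of the 6 fits. Replication genes followed with smaller differences, a median of 0.39 and 15 of 16 positive, and 0 calls. The 6 cell cycle inhibitors gave 0 calls and a median of -0.46, with Cdkn1b at -0.57 ± 0.23 and Cdkn1a at -0.15 ± 0.56.

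In the list of lipid-laden and osteoclast-like macrophage genes 1 of 15 rose and 0 fell (1.32% and 1.81% of all genes). Atp6v0d2, part of a proton pump used by osteoclasts and macrophages, had 2.76, 2.05 and 3.07 at day 14, against 1.26, 1.47 and 0.61 at day 7 (1.51 ± 0.32, adjusted p = 0.0296). Atp6v0d2 averaged -4.12 in unoperated vein, and its call held in 1 of the 6 fits that left out 1 array. The list's median was 0.42 and 14 of 15 differences were positive. The lipoprotein Apoe had 7.04, 6.63 and 7.23 at day 14, against 5.75, 5.26 and 6.14 at day 7, and did not pass (1.25 ± 0.34, adjusted p = 0.0845). Abca1, the cholesterol exporter, likewise missed the threshold (1.14 ± 0.30, adjusted p = 0.0771), and the lipid receptor Trem2 had 1.15 ± 0.41 (adjusted p = 0.201). The 9 graft arrays alone called 5 of the 15 higher, against 4.42% of all probes. Resident and scavenger macrophage genes gave 0 calls of 10, with a median of 0.39.

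**Figure D4:**
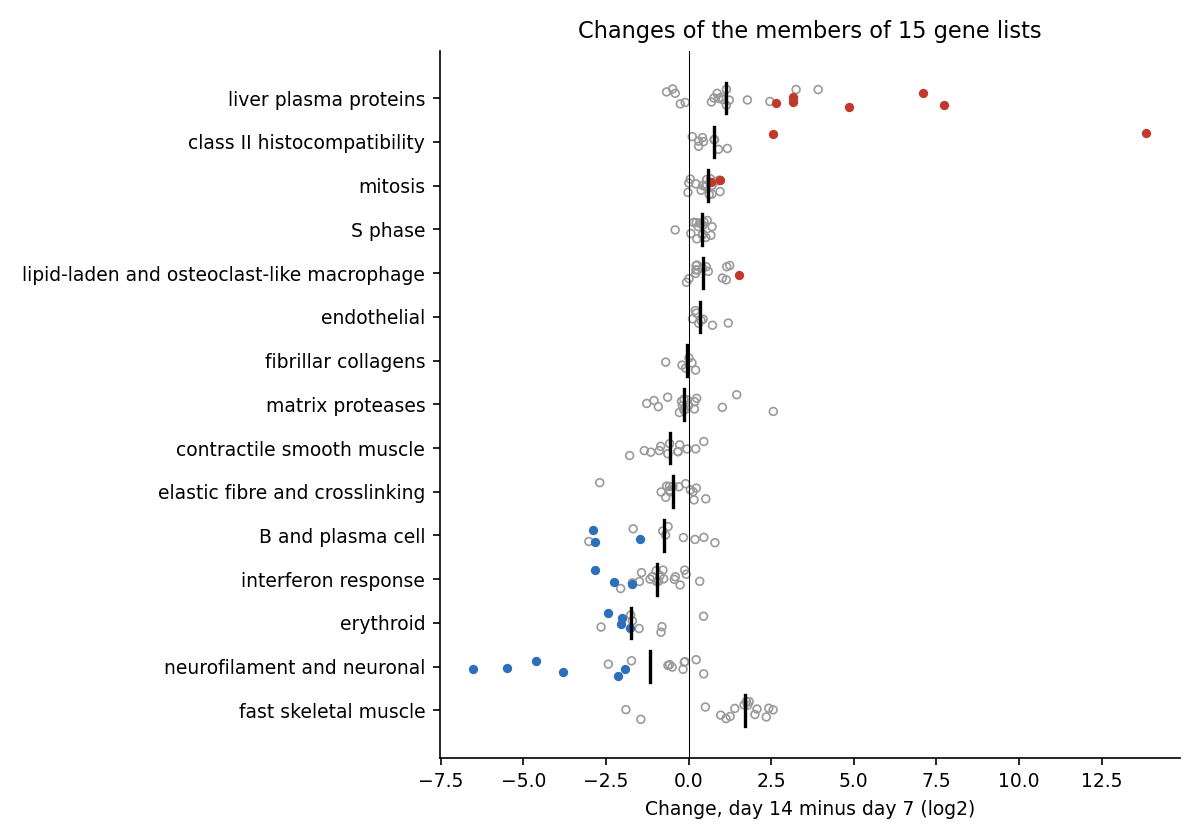
Change of each gene, day 14 minus day 7 (log2), in 15 gene lists. Filled red points rose, filled blue points fell, open points did not pass the threshold, and the black tick is the list's median. The interferon list has 20 of its 21 points left of 0, 3 of them called, and the 6 called points of the liver plasma list lie right of 0.

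The vein wall's own genes gave 0 calls in smooth muscle, endothelium, fibrillar collagen and elastic fibre lists. In simulated data the fit called 22 of 100 true 2-fold changes, so a missing call does not mean an unchanged gene. For smooth muscle this depended on day 7 replicate 3. Cnn1, the smooth muscle protein calponin, had 2.56, 3.46 and 2.03 at day 14, against 4.17, 4.51 and 1.90 at day 7. Myocd, the master coactivator of contractile genes, had -4.61, -3.83 and -4.88 at day 14, against -1.45, -0.94 and -5.58 at day 7. On both genes the other 2 day 7 arrays lay above every day 14 array and replicate 3 lay below all of them. Over the 13 contractile genes the median difference was -0.57 with 0 calls, and -1.23 with 5 lower (Casq2, Cnn1, Kcnmb1, Lmod1 and Myocd) without day 7 replicate 3. Over all probes 4.33% fell without that array, against 1.88% with it. In unoperated vein Cnn1 averaged 7.67 and Myocd 1.35, above both graft days.

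Eln, which encodes elastin, had 2.28, 3.26 and 0.89 at day 14, against 6.57, 6.92 and 1.01 at day 7, with replicate 3 far below the other day 7 arrays. Its change was -2.69 ± 1.28 (adjusted p = 0.351), and its adjusted p was 0.00133 without day 7 replicate 3. Ccn2, a matricellular growth factor partner, had 5.44, 5.49 and 5.46 at day 14, against 7.23, 7.45 and 4.23 at day 7. Without that array Ccn2 and Ccn3 fell among 14 matricellular genes (0 with it), Bcan, Acan, Fmod, Ogn and Omd among 15 proteoglycan genes (Bcan alone with it), and Grem1, Id3, Smad6, Tgfb2 and Tgfb3 among 20 genes of TGF-beta and BMP signalling (0 with it). The share of all probes that fell was 4.33% in that fit and 1.88% in the main one. Tgfb3 had 2.80, 3.15 and 2.52 at day 14, against 5.04, 5.36 and 1.91 at day 7. The fibrillar collagens gave 0 calls with either set of arrays: Col1a2 had 7.64, 7.63 and 7.66 at day 14, against 7.72, 7.72 and 8.08 at day 7, and the list's median was -0.04. Among 19 matrix proteases 0 passed, with a median of -0.14. All 8 endothelial genes had positive differences with a median of 0.34 and 0 calls, and Pecam1 had 2.01, 2.16 and 2.09 at day 14, against 1.43, 1.45 and -0.23 at day 7.

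Single genes from other lists passed, where 1.32% of all genes rose and 1.81% fell. Elovl6, an elongase of long-chain fatty acids, had 1.68, 2.11 and 1.30 at day 14, against -0.09 to 0.04 at day 7 (1.71 ± 0.26, adjusted p = 0.00658), and its call held without each array; it was 1 of 18 genes of sterol and fatty acid synthesis. Tnnt2, cardiac troponin T, had 3.56, 3.52 and 3.73 at day 14, against 2.15, 1.99 and 2.16 at day 7 (1.5 ± 0.30), with its 3 day 14 arrays close together. Pdgfc, a platelet-derived growth factor, rose by 1.13 ± 0.25 (1 of 29 growth factors and receptors). F7, coagulation factor VII, rose by 1.40 ± 0.29 (1 of 16 coagulation genes), at least 1.765-fold, and was below background on every day 7 array. Atf4, the transcription factor of the stress response to amino acid shortage and misfolded protein, had 3.17, 3.37 and 3.31 at day 14, against 3.99, 4.18 and 4.15 at day 7 (-0.82 ± 0.18). Dkk2, a Wnt modulator, fell by 1.19 on the log2 scale (-1.19 ± 0.24). Of these 6 genes only Elovl6 kept its call without each array. Lists with 0 calls were fibroblast and pericyte, basement membrane, protease inhibitors, osteochondrogenic, leukocyte adhesion, complement, glycolysis and hypoxia, fatty acid oxidation, myogenic regeneration, adipocyte, mesothelial and simple keratin, lung and gland, immediate early, oxidative stress, ribosomal protein and named non-coding RNA. The 37 called genes of the 50 lists came mainly from the liver, neuronal, erythroid, B cell, interferon and class II lists.

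Serpinb11, a serine protease inhibitor family member, had -8.78, -8.68 and -8.67 at day 14, against -1.85, -1.99 and -1.52 at day 7 (-6.92 ± 0.85, adjusted p = 0.00215). It was below background on all 3 day 14 arrays and at least 34.7-fold lower. The largest fall of a probe without a gene symbol was that of U65217, with -5.03, -3.24 and -5.17 at day 14, against 4.22, 4.41 and 3.63 at day 7 (-8.57 ± 0.91, adjusted p = 0.000941). U65217 averaged -1.30 in unoperated vein (0.53, -0.66 and -3.77) and 3.32 at day 28. The day 14 mean of -4.48 stood below both, but day 0 replicate 3 lay below day 14 replicate 2. MRAK013810 and MRuc007smc, also without a symbol, fell by at least 45.3-fold and 18.2-fold. Among the rises, Syce1, a protein of the meiotic synaptonemal complex, had -2.36, -1.86 and -2.14 at day 14, against -7.51, -7.13 and -8.02 at day 7 (5.44 ± 0.39, adjusted p = 0.000215, at least 22.4-fold). Hspb3, a small heat shock protein of muscle, had -2.66, -2.78 and -2.71 at day 14, against -6.83, -6.92 and -7.14 at day 7 (4.24 ± 0.68, at least 14.1-fold).

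A set of probes was picked for 1 shape over the whole series. Vangl1, a planar cell polarity protein, had 3.74, 4.24 and 3.31 at day 14, against -1.09, -1.78 and -0.29 at day 7 (4.82 ± 0.51, adjusted p = 0.000913). It averaged -1.12 in unoperated vein and -0.16 at day 28, so that day 14 alone was high. Across the 12 arrays 50 probes, that of Vangl1 included, had r of at least 0.95 with it. The set was chosen after the values were seen and is a description. All 50 rose at day 14, by 1.27 to 5.37, which follows largely from choosing them by likeness to a probe high at that day. Of the 50, 23 had a symbol and 27 had none. With Vangl1 stood Zzz3, a chromatin reader (4.82 ± 0.58), Pamr1 (4.6 ± 0.54) and the probes XR_008202 (5.37 ± 0.62) and EF673689 (5.32 ± 0.58). Zzz3 had 3.80, 4.12 and 3.17 at day 14, against -1.25, -1.82 and -0.29 at day 7, and day 14 replicate 2 was the highest array for Zzz3 as for Vangl1. MRAK143033, another probe with no symbol, rose by 5.0 ± 0.45. With slide as a fixed block, where the change rests on day 14 replicate 1 alone, its change was 4.79. The set held 5 olfactory receptor genes, among them Or8h7 (5.27 ± 0.56), Or52e51 (4.66 ± 0.83) and Or52e8b (4.33 ± 0.72). Of all 498 olfactory receptor genes tested 7 rose (1.41%) and 7 fell, near the 1.38% and 1.88% of all probes.

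**Figure D5:**
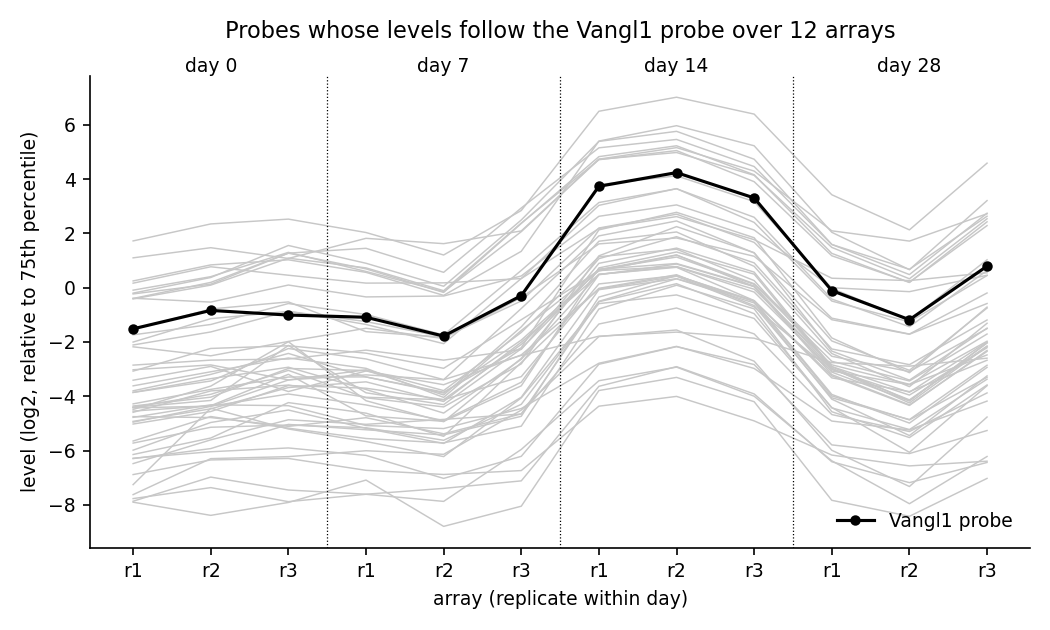
Level on each of the 12 arrays, ordered by days 0, 7, 14 and 28, of the 50 probes with r of at least 0.95 to Vangl1 (log2 relative to the 75th percentile of the array). Grey lines are the probes and the black line is Vangl1, which averages -1.12 at day 0 and -0.16 at day 28 and is high at day 14 alone.

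By kind of transcript, the share of probes called was 3.15% of 13625 coding RefSeq probes, 3.12% of 2889 probes for mouse-ortholog cDNA, 2.92% of 1439 predicted non-coding RefSeq probes, 2.77% of 1083 ultraconserved regions and 4.84% of 1963 other records. Of 26 probes for curated non-coding RefSeq transcripts 0 were called by limma. Probes with no symbol made up 122 of the 290 rises and 154 of the 397 falls.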

How the data were processed

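The series holds 12 single-colour Agilent arrays of RNA from vein, 3 a day. Per the labels' protocols, RNA was isolated with Trizol, depleted of ribosomal RNA and made into Cy3-labelled cRNA with oligo(dT) and random primers. Deposited with each array is a scanner table whose spot intensity, per the file headers, is linear and was background-corrected by Agilent Feature Extraction (version 11.0.1.1), and the array design was annotated on rn4. The authors' deposited table of 24529 features looks like log2 from its values, and the sources used here do not state how it was normalized. Its column medians were 7.149 to 7.153, and each of 12 columns correlated best with its own array (lowest r 0.994).

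Control spots and 7348 outlier spots were left out, which left 478 values missing, and repeated spots were averaged by probe. With limma (version 3.58.1, R 4.3.3) a model over all 12 arrays was fitted to log2 of the processed intensity minus the array's 75th percentile, for probes well above background on at least 3. Python 3.11.15, NumPy 2.4.6, pandas 2.3.3 and Matplotlib 3.10.9 did the rest, and the fit was tested on simulated data. There it called 22 of 100 probes changed by 1 log2 unit and 68 of 100 changed by 2. A gene or list without a call may therefore still have changed. Symbols came from RefSeq accessions (GRCr8 table): 14294 of 24684 probes had 1, 0 had several and 10390 had none. In the lists the brightest probe stood for a gene. Opposite calls from 1 gene's probes occurred for 0 of the 277 genes with several probes tested. The number of arrays limits the precision.

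The groups and gene lists were chosen with earlier results of these data known, and 2 lists (brain, liver metabolism) after the values were seen, so lists have counts and medians and no test. Named were the 15 largest rises and the 15 largest falls among called genes above background on the whole brighter day, the 4 called members with the smallest p in each list, members of other-tissue lists, and 3 rises and 3 falls of probes without a symbol; other genes were chosen after their values were seen. Alternatives were other filters, normalizations, sets of arrays, weights, slide as a block and each array left out. For normexp the median spot and background signals were used, with an offset of 50, because the mean signal column is not in these tables. Some named members are not reported here.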

Additional observations from a re-analysis of the deposited data

How the results depend on the processing

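For day 14 against day 7, the main 687 calls (290 higher, 397 lower) became 1694 (931 and 763) with the 9 graft arrays alone, 10670 (5436 and 5234) with array quality weights, 2427 (894 and 1533) without the 2 arrays with many non-uniform spots, 53 (22 and 31) with normexp, 28 (11 and 17) with slide as a fixed block and 0 within the slide that held both days, where 1 day 14 array met 3. The 6 arrays of these days alone gave 454 higher and 344 lower. Leaving out 1 array at a time gave 225 to 1263 calls, 89 to 351 higher and 130 to 912 lower. Genes called in the 50 gene lists at day 14 against day 7 numbered 37, and 77 with the 9 graft arrays, 447 with weights, 112 without the 2 non-uniform arrays, 8 with normexp, 1 with the fixed block, 0 within the slide and 12 to 66 with 1 array left out. Of 66 named probes 41 kept their call without each array in turn, and RT1-Db1, Cxcl10, Gzma and Pdgfc lost it each time. With normexp, F7 (-0.87) and Afm (-0.58) turned sign, against a median of -0.37 over all probes. With slide as a random block 61 of the 66 kept their call, 64 with quantile normalization, 64 with the authors' values, 15 with normexp and 9 with the fixed block. Signal over background limits the 139 changes given as bounds. No paired analysis was possible because all labels carry the same replicate number. The causes of these shifts were not tested.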
